A study of Mus musculus with 4 samples.

Results

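The genes described here make and break down ceramide, sphingomyelin and the glycosphingolipids. They lie upstream of sphingosine-1-phosphate (S1P) and beside it. The 39 genes were taken from a list of such enzymes and their regulators by exact match of the gene name, and all 39 were among the 22672 named genes of the count table.

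Ceramide is the hub of this pathway. It is built in the endoplasmic reticulum from serine and palmitoyl-CoA, and it is then turned into sphingomyelin, into ceramide-1-phosphate or, through glucosylceramide, into gangliosides. Lysosomal enzymes take these lipids apart again to ceramide and then to sphingosine, the substrate of the sphingosine kinases. In T cells, sphingomyelin and gangliosides are part of the ordered membrane domains in which the antigen receptor signals, and ceramide is known for its link to growth arrest and cell death.

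The libraries came from splenic T cells of Pmel mice, whose transgenic receptor recognises gp100, a pigment cell protein. All were cultured for 72 h with 1 µg/ml of the cognate peptide and 100 U/ml of IL-2. Of the 4 libraries, 2 were labelled SphK1 -/- (Pmel mice deficient in sphingosine kinase 1) and 2 were labelled WT control (Pmel mice with no such deficiency named). Age, sex and the targeted exons were not given, nor was it stated whether libraries of a genotype came from separate animals, so a p-value here reflects how far these 4 libraries scatter, and that scatter may be technical.

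Sphk1, the gene named in the labels, went against them. It had 35 and 18 reads in the SphK1 -/- libraries and 2 and 4 reads in the WT control libraries, and all directions below are therefore those of the labels. A further 720 entries of the table carried no gene name, and the libraries labelled SphK1 -/- had no value for them. Total counts were 50538355 and 53640611 in the libraries labelled SphK1 -/- and 44277592 and 46449606 in the WT control libraries. The 8 T cell markers summed to 4564 and 4799 CPM (counts scaled to library size, with TMM factors) in the libraries labelled SphK1 -/-, against 4527 and 5014 CPM in the WT control libraries. The 6 B cell markers summed to 312.2 and 151 CPM in the libraries labelled SphK1 -/-, against 138.3 and 145.7 CPM in the WT control libraries. Sums in the libraries labelled SphK1 -/- were 24.7 and 15.5 CPM for macrophage and monocyte markers (6 of 7 in the table), 21.3 and 14.3 CPM for natural killer cell markers and 9.27 and 6.01 CPM for dendritic cell markers. The WT control libraries held 9.03 and 11.04 CPM, 7.51 and 6.48 CPM, and 2.72 and 3.65 CPM of the same lists. Neutrophil markers summed to at most 1.89 CPM in any library, helper T cell markers lay between 17.1 and 38.7 CPM, and the natural killer genes Klra4 and Klra8 were at 0 reads in all 4 libraries. The part of these cells in the values below was not tested, and in such bulk samples fewer cells of a type and less RNA per cell cannot be told apart.

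Reads were found for all 39 genes, at very different levels. Levels are given as CPM per kb of annotated exon where genes are compared with each other. On that scale 17 of the 39 genes averaged above 10 over the 4 libraries, 18 lay between 1 and 10, and 4 lay under 1. The highest was Psap, which encodes the precursor of the saposins, the small proteins that present sphingolipids to lysosomal enzymes, at 153.8 CPM per kb. Gm2a (67.4), the activator that lifts ganglioside GM2 out of the membrane for hexosaminidase A, and Ugcg (65.5), the enzyme that adds glucose to ceramide, came next, followed by Cers2 (63.0) and Degs1 (49.9). Psap lay above Gm2a in every library, whereas Gm2a, Ugcg and Cers2 changed order between libraries. The lowest were Asah2 (0.441), Smpd3 (0.068), B4galt6 (0.041) and Sgms2 (0.021).

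**Figure D1:**
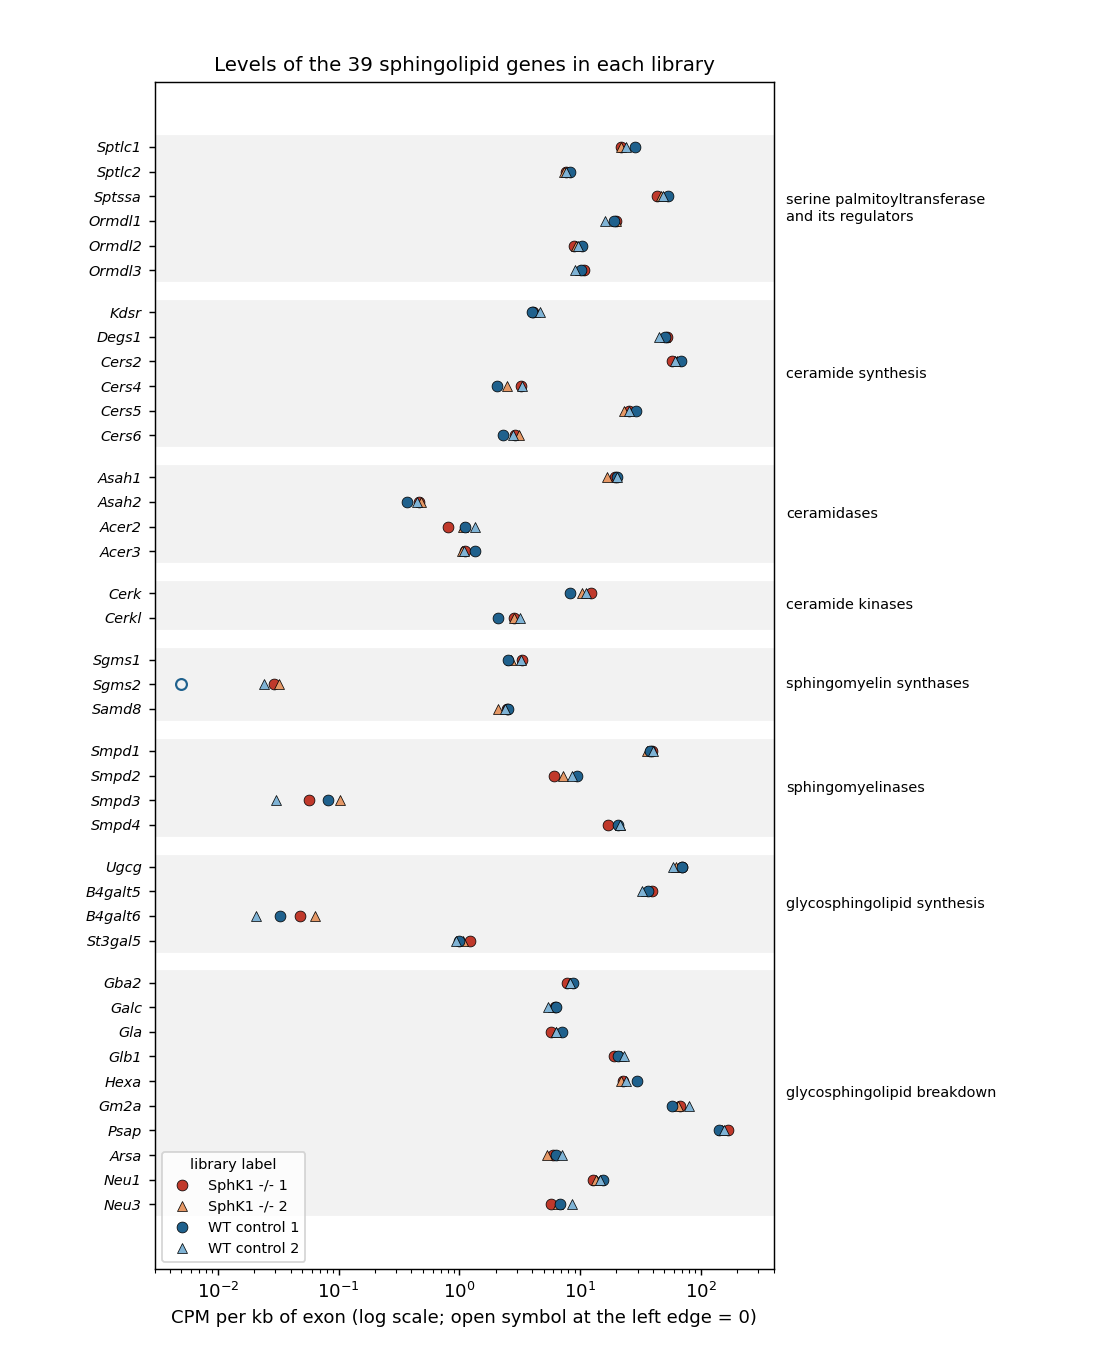
Level of each of the 39 genes in each library, as CPM per kb of exon on a log axis, with genes grouped by role; each point is 1 library and the open symbol marks a value of 0. The 4 libraries of a gene lie close together beside the range between genes, which runs from 0.021 to 153.8 CPM per kb on average.

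In several families 1 gene held most of the summed transcript level, and the same gene led in all 4 libraries. These are shares of transcript, and enzyme amounts were not measured. The shares also depend on exon length, which was 2.216 kb for Cers2 and 9.475 kb for Cers4. It was 2.773 kb for Asah1 and 11.424 kb for Acer3. Without division by length, the means were 139.7 CPM for Cers2 and 26.3 CPM for Cers4. They were 53.0 CPM for Asah1 and 13.2 CPM for Acer3. Among the ceramide synthases, which attach a fatty acid to the sphingoid base, Cers2, the isoform for very long acyl chains, made up 64.7% and 68.9% of the summed CPM per kb in the libraries labelled SphK1 -/-, against 67.4% and 66.2% in the WT control libraries. Cers5, which prefers palmitoyl chains, gave 28.3% and 25.0% in the libraries labelled SphK1 -/- and 28.2% and 27.1% in the WT control libraries. Cers4 and Cers6 stayed at or under 3.61% in every library, Cers3 at or under 0.115%, and Cers1 had 0 reads. The acid ceramidase Asah1 held 89.0% and 86.1% of the ceramidase sum in the libraries labelled SphK1 -/- and 87.6% and 87.5% in the WT control libraries. B4galt5 supplied at least 99.8% of the lactosylceramide synthase sum in each library, with B4galt6 as the remainder.

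Other families were shared between their genes. The acid sphingomyelinase Smpd1 took 62.9% and 55.4% of the sphingomyelinase sum in the libraries labelled SphK1 -/-, against 55.8% and 57.3% in the WT control libraries. Smpd4, a neutral sphingomyelinase of the endoplasmic reticulum and nuclear envelope, took 27.3% and 33.3% in the libraries labelled SphK1 -/-, against 30.2% and 30.5% in the WT control libraries. Sgms1, the Golgi sphingomyelin synthase, held 56.7% and 55.7% of its family's sum in the libraries labelled SphK1 -/-, against 49.8% and 57.5% in the WT control libraries. Samd8, its relative that makes ceramide phosphoethanolamine, held 42.8% and 43.6% in the libraries labelled SphK1 -/-, against 50.2% and 42.1% in the WT control libraries. Of the ORMDL proteins, which restrain serine palmitoyltransferase, Ormdl1 made up 50.2% and 50.8% in the libraries labelled SphK1 -/- and 48.1% and 46.1% in the WT control libraries. Ormdl2 made up 22.5% and 23.7% in the libraries labelled SphK1 -/- and 26.2% and 27.8% in the WT control libraries. The ORMDL shares of these 2 genes did not overlap between the groups. Separate shares were also found for Sptlc1, Sptlc2, Cers6, Asah2, Smpd2 and B4galt6 within their families, among others. In CPM, the groups did not overlap for 44.8% of all genes tested. With 2 libraries against 2, an exact two-sided permutation test cannot give a p below 0.333. Other genes cover 66.7% of the exons of Ormdl2. How reads in such overlaps were counted is not given, so its level and share are uncertain.

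**Figure D2:**
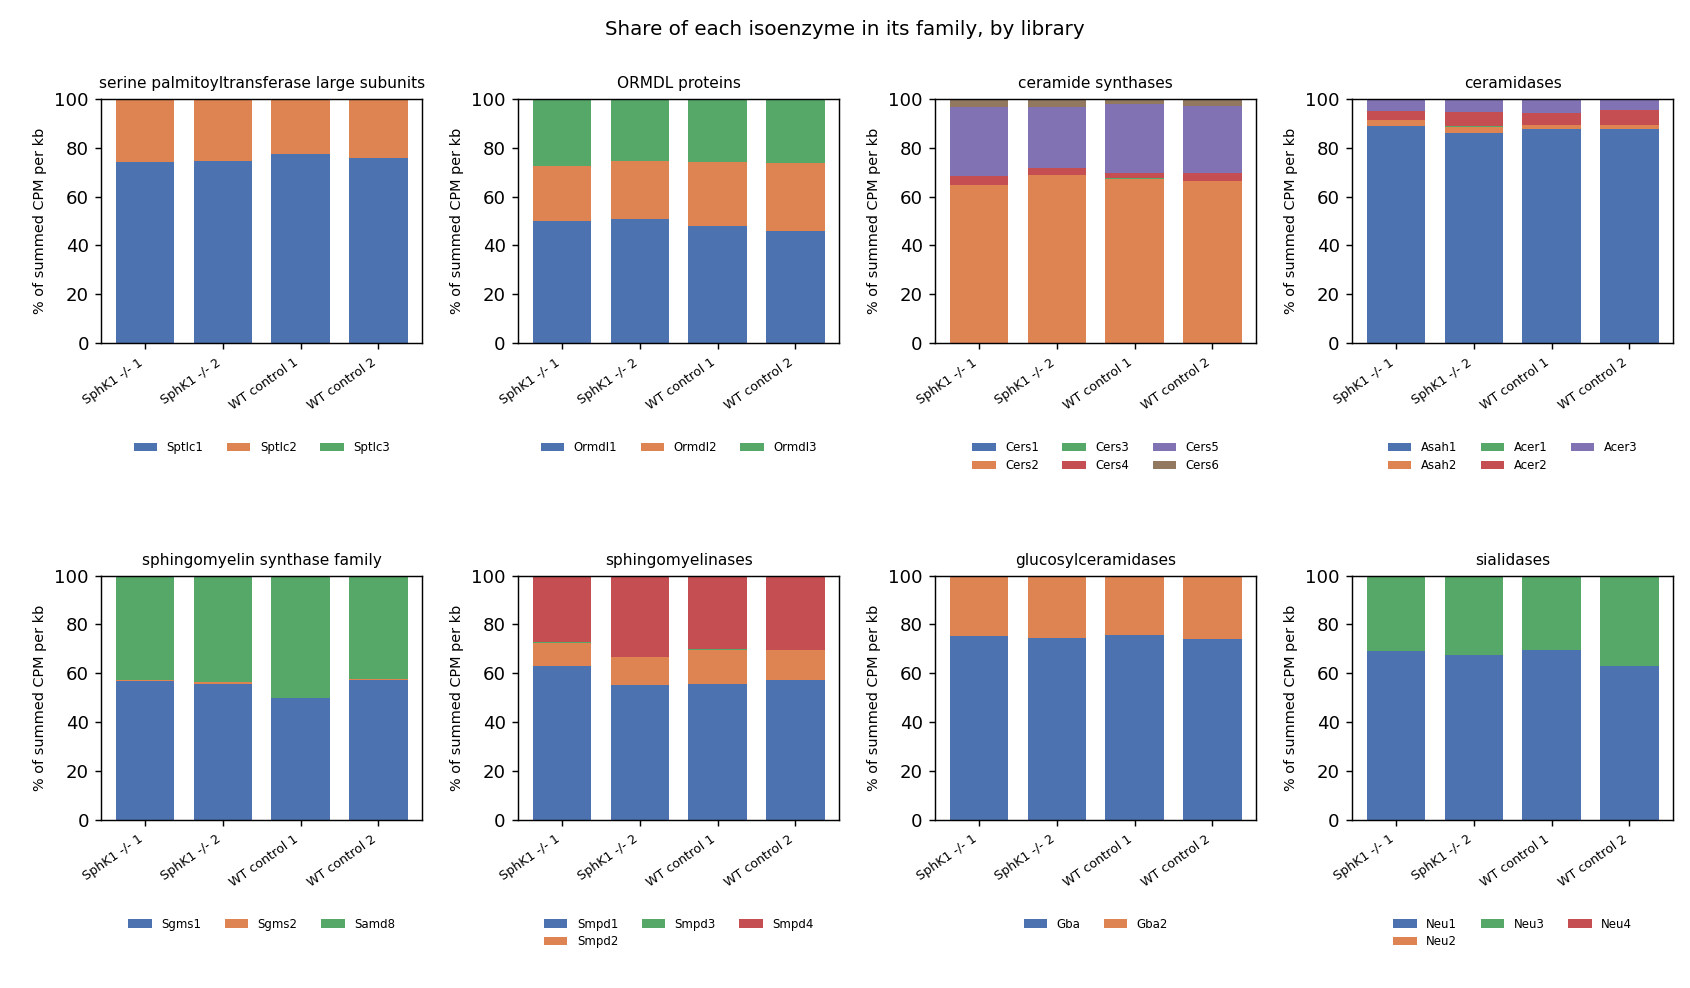
Share of each gene in the summed CPM per kb of its family, in percent, with 1 bar for each library. The libraries labelled SphK1 -/- are on the left of each panel. Sptlc1 and Sptlc2 are subunits of the same enzyme, and the ORMDL proteins are regulators, so those panels do not compare isoenzymes. The same gene has the largest share of all 4 bars in every panel but that of the sphingomyelin synthase family. There Samd8 (50.2%) passes Sgms1 (49.8%) in WT control 1.

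Between the genotypes of the labels, no member passed the threshold (edgeR quasi-likelihood F test with Benjamini-Hochberg adjustment over all 12758 genes tested, adjusted p under 0.05). Over all genes tested, 6.75% were called, 6.0% higher and 0.752% lower in the libraries labelled SphK1 -/-. Of the 39 members 38 passed the filter on low counts, and their adjusted p ran from 0.305 to 0.941 in edgeR. At an unadjusted p under 0.05 only Smpd2 was past the line, 2.63% of the members against 14.9% of all genes tested. DESeq2 and limma-voom also called 0 of the 38, against 8.17% and 6.54% of all genes.

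Log2 fold changes, given as libraries labelled SphK1 -/- over WT control, had a median of -0.075 over the 38 members and of -0.021 over all genes tested. They were negative for 22 members, 57.9% against 53.8% of all genes tested, and positive for 16. The 95% interval of the fold change lay wholly within 2-fold in either direction for 36 members and within 1.5-fold for 27. The members outside the 2-fold bounds were Smpd3 and B4galt6, both with at most 26 reads in any library. Scaling by library totals alone, without TMM, called 5 of the 38 tested members lower, against 11.2% of all genes tested. Under that scaling 652 genes were called higher and 1432 lower, against 765 and 96 with TMM, and all tested genes had a median of -0.26 on the log2 scale.

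**Figure D3:**
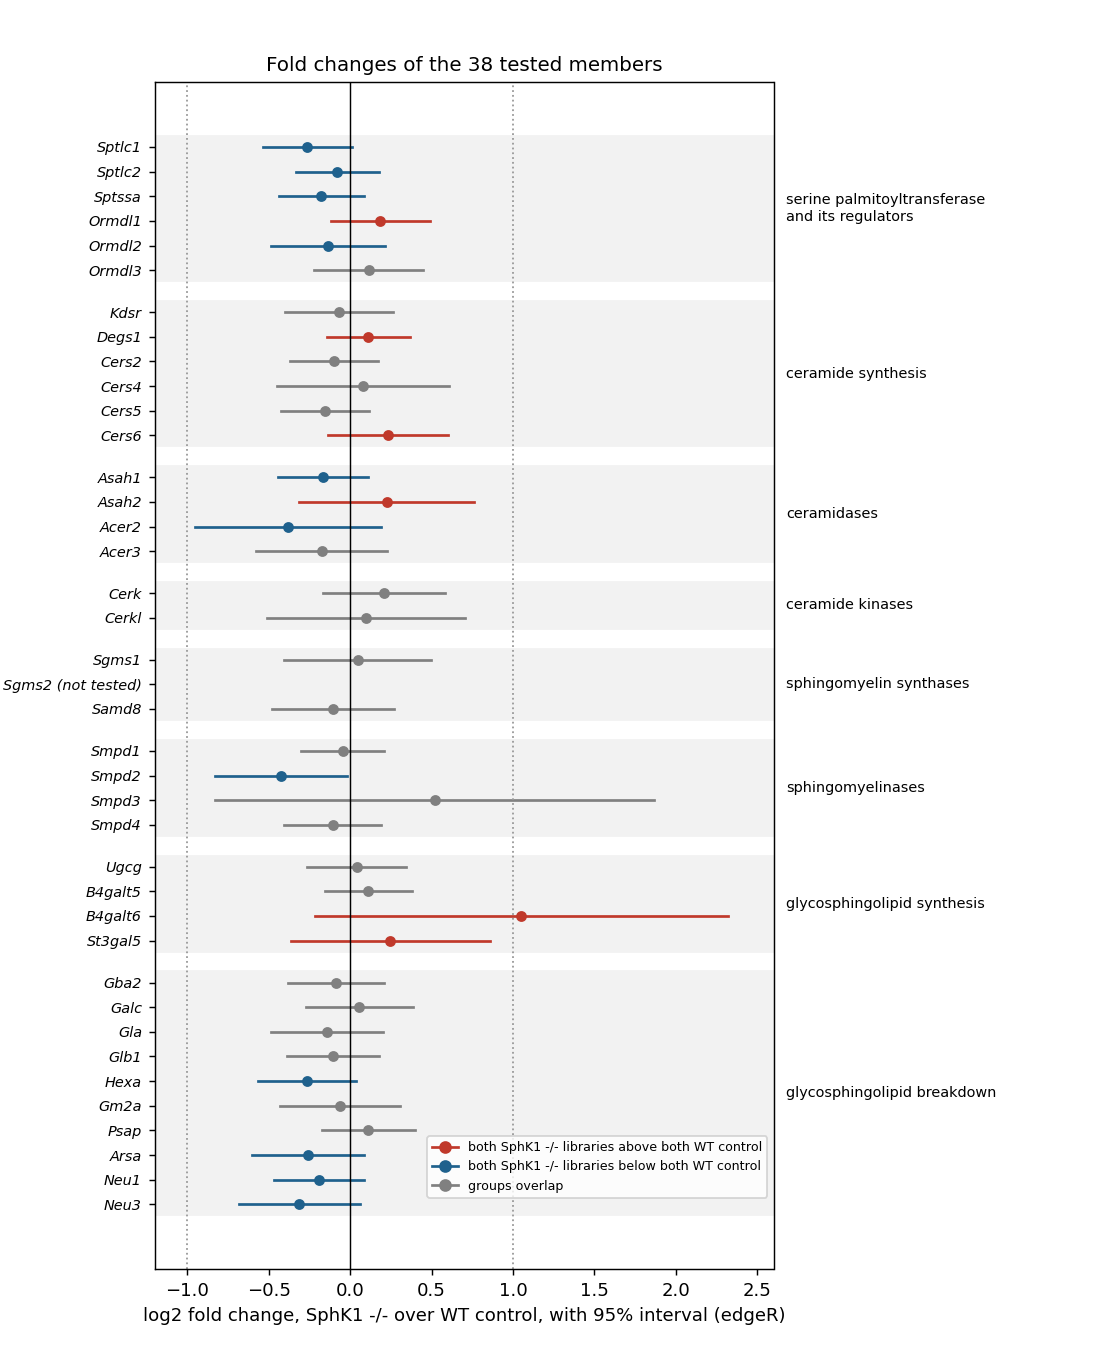
Log2 fold change of each tested member, libraries labelled SphK1 -/- over WT control, as a point with its 95% interval from edgeR, grouped by role; dotted lines mark a 2-fold change and colours show whether the groups overlap. All intervals but that of Smpd2 include 0, and only those of Smpd3 and B4galt6 reach past a 2-fold change.

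For 17 of the 38 members the 2 groups did not overlap in CPM, 44.7%, against 44.8% of all genes tested. Both libraries labelled SphK1 -/- were lower for 11 members, 28.9% against 23.8% of all genes, and higher for 6, 15.8% against 21.0% of all genes. These shares lay near the background. The 11 were Sptlc1, Sptlc2, Sptssa, Ormdl2, Asah1, Acer2, Smpd2, Hexa, Arsa, Neu1 and Neu3, and the 6 were Ormdl1, Degs1, Cers6, Asah2, B4galt6 and St3gal5.

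Of the genes for serine palmitoyltransferase, Sptlc1, Sptlc2 and Sptssa were lower in both libraries labelled SphK1 -/-, an order that 23.8% of all genes tested showed, and none passed the test. The subunit genes Sptlc3 and Sptssb, outside the 39, had at most 2 reads in any library and were not tested. Serine palmitoyltransferase joins serine to palmitoyl-CoA and sets the pace of the pathway. Sptlc1 (chromosome 13, 53332748 to 53377397, GRCm38), its regulatory large subunit, had 56.7 and 57.1 CPM in the libraries labelled SphK1 -/-, against 73.7 and 62.7 CPM in the WT control libraries. The groups did not overlap, and WT control 1 was the highest library. The log2 fold change was -0.26 ± 0.12 (SE; 95% interval -0.54 to 0.011; edgeR adjusted p = 0.366). Sptlc2, the catalytic partner, and Sptssa, the small activating subunit, had log2 fold changes of -0.079 ± 0.11 and -0.18 ± 0.11 (SE; adjusted p = 0.812 and 0.554 in edgeR), and in both genes the libraries labelled SphK1 -/- lay below the WT control libraries. The ORMDL inhibitors did not share a direction. Log2 fold changes were 0.18 for Ormdl1, -0.13 for Ormdl2 and 0.11 for Ormdl3, with adjusted p from 0.608 to 0.796 in edgeR.

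Later steps of ceramide synthesis differed by little. Kdsr, which reduces the first product of the pathway, stood at 22.4 and 23.2 CPM in the libraries labelled SphK1 -/- and 22.2 and 25.7 CPM in the WT control libraries. Degs1, which puts the double bond into dihydroceramide, was at 108 and 104.1 CPM in the libraries labelled SphK1 -/-, against 103.8 and 92.6 CPM in the WT control libraries (log2 fold change 0.11 ± 0.11, SE). Cers6 (chromosome 2, 68861441 to 69114282), a ceramide synthase for palmitoyl chains, had 20.3 and 21.9 CPM in the libraries labelled SphK1 -/- and 16.2 and 19.8 CPM in the WT control libraries. Its groups were separate by a narrow margin, and its log2 fold change of 0.23 ± 0.16 (SE; 95% interval -0.14 to 0.60) had an adjusted p of 0.589 in edgeR. Cers4 varied more between the controls than between the groups, with 30.5 and 23.5 CPM in the libraries labelled SphK1 -/- and 19.5 and 31.6 CPM in the WT control libraries. Cers2 and Cers5 had log2 fold changes of -0.099 and -0.16 (adjusted p = 0.771 and 0.627 in edgeR).

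Ceramidases release sphingosine, the substrate that sphingosine kinase 1 would phosphorylate. Asah1 was at 53.9 and 46.0 CPM in the libraries labelled SphK1 -/-, against 56.1 and 56.2 CPM in the WT control libraries, a log2 fold change of -0.17 ± 0.12 (SE; adjusted p = 0.608 in edgeR). Acer2 (chromosome 4, 86874396 to 86934822), the alkaline ceramidase of the Golgi, had 3.42 and 4.51 CPM in the libraries labelled SphK1 -/- and 4.68 and 5.64 CPM in the WT control libraries. Both libraries of the first pair were lower, and the log2 fold change of -0.38 ± 0.25 (SE; 95% interval -0.95 to 0.19) had an adjusted p of 0.567 in edgeR. Asah2, the neutral ceramidase, stood at 4.42 and 4.59 CPM in the libraries labelled SphK1 -/- and 3.51 and 4.21 CPM in the WT control libraries (log2 fold change 0.22 ± 0.23, SE). The log2 fold change of Acer3, another alkaline ceramidase, was -0.17, and 7.37% of its 30-base words also occur in genes elsewhere. Cerk, which makes ceramide-1-phosphate, was at 55.9 and 47.1 CPM in the libraries labelled SphK1 -/-, against 37.96 and 51.1 CPM in the WT control libraries. Its relative Cerkl ranged from 3.38 to 5.14 CPM over the 4 libraries, and the adjusted p was 0.637 for Cerk and 0.907 for Cerkl in edgeR.

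Among the sphingomyelinases, which split sphingomyelin to ceramide, Smpd2 came nearest to the threshold of all members. This neutral enzyme (chromosome 10, 41485642 to 41490369) had 9.81 and 11.6 CPM in the libraries labelled SphK1 -/-, against 15.1 and 13.6 CPM in the WT control libraries. Both libraries labelled SphK1 -/- were below both controls. The log2 ratio of library 2 over library 1 was 0.25 for SphK1 -/- and -0.15 for WT control. Both were smaller in size than the log2 fold change between groups. The fold change was 0.745 (95% interval 0.563 to 0.987), a log2 fold change of -0.42 ± 0.18 (SE; adjusted p = 0.305 in edgeR). Other genes cover 20.3% of its exons, so the value is uncertain. Smpd3, the second neutral enzyme, had only 14 and 26 reads in the libraries labelled SphK1 -/- and 20 and 8 reads in the WT control libraries (log2 fold change 0.52 ± 0.59, SE; adjusted p = 0.761 in edgeR). Smpd1 and Smpd4 had log2 fold changes of -0.044 and -0.11. Within the sphingomyelin synthase family, Sgms1 had a log2 fold change of 0.047 and Samd8 one of -0.10. Sgms2, the sphingomyelin synthase of the plasma membrane, did not pass the filter, with 8 and 9 reads in the libraries labelled SphK1 -/- and 0 and 7 reads in the WT control libraries. A count of 0 in WT control 1 allows up to 3 counts, or 0.0639 CPM, and covers counting error only.

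Glycosphingolipid synthesis starts with Ugcg (chromosome 4, 59189257 to 59222833). It had 282.3 and 250.2 CPM in the libraries labelled SphK1 -/-, against 281.9 and 236.0 CPM in the WT control libraries. The first library of each group was the higher one, and the log2 fold change was 0.040 ± 0.13 (SE; 95% interval -0.26 to 0.34; adjusted p = 0.926 in edgeR). B4galt5, which adds galactose to form lactosylceramide, had a log2 fold change of 0.11 ± 0.12 (SE). Its twin B4galt6 (chromosome 18, 20684599 to 20746404) had the largest fold change of the members, but on 13 and 18 reads in the libraries labelled SphK1 -/- and 9 and 6 reads in the WT control libraries. The log2 fold change of 1.05 ± 0.55 (SE) had a 95% interval from -0.21 to 2.32 and an adjusted p of 0.455 in edgeR. St3gal5 (chromosome 6, 72097592 to 72154571), which makes the first ganglioside, GM3, was low, at 3.04 and 2.64 CPM in the libraries labelled SphK1 -/- and 2.45 and 2.33 CPM in the WT control libraries. The groups did not overlap, with a log2 fold change of 0.25 ± 0.27 (SE; adjusted p = 0.747 in edgeR).

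Breakdown of glycosphingolipids takes place mostly in lysosomes, and 8 of its 10 members had a negative log2 fold change, as did 53.8% of all genes tested. The median was -0.12, against -0.021 over all genes. None passed the threshold. Hexa (chromosome 9, 59539540 to 59565109), the alpha chain of hexosaminidase A that is lost in Tay-Sachs disease, had 45.3 and 43.4 CPM in the libraries labelled SphK1 -/-, against 58.9 and 47.8 CPM in the WT control libraries. Both libraries labelled SphK1 -/- were lower, and WT control 1 was the farthest from the rest (log2 fold change -0.27 ± 0.13, SE; 95% interval -0.57 to 0.036; adjusted p = 0.417 in edgeR). Arsa (chromosome 15, 89472476 to 89477425), arylsulfatase A, which removes sulfate from sulfatide, had 20.9 and 18.5 CPM in the libraries labelled SphK1 -/-, against 22.2 and 24.9 CPM in the WT control libraries. Its groups were separate as well (log2 fold change -0.26 ± 0.15, SE; 95% interval -0.60 to 0.086; adjusted p = 0.510 in edgeR). Other genes cover 12.8% of the exons of Hexa and 18.8% of those of Arsa.

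The sialidases showed the same order of groups. Neu3 (chromosome 7, 99811439 to 99828417), the sialidase of the plasma membrane, had 19.3 and 21.9 CPM in the libraries labelled SphK1 -/-, against 22.8 and 28.4 CPM in the WT control libraries. WT control 2 stood highest, and the log2 fold change was -0.31 ± 0.16 (SE; 95% interval -0.68 to 0.059; adjusted p = 0.447 in edgeR). Neu3 shares 5.13% of its 30-base words with genes elsewhere. Neu1, the lysosomal sialidase, had 31.8 and 33.5 CPM in the libraries labelled SphK1 -/- and 38.3 and 36.2 CPM in the WT control libraries (log2 fold change -0.19 ± 0.12, SE; adjusted p = 0.554 in edgeR). The other glycosidases overlapped between groups. Their log2 fold changes were -0.14 for Gla, the enzyme of Fabry disease, -0.11 for Glb1, the beta-galactosidase, 0.057 for Galc, which cleaves galactosylceramide, and -0.087 for Gba2, a glucosylceramidase outside the lysosome.

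The lysosomal helper proteins were among the most abundant members, and their groups overlapped. Psap (chromosome 10, 60277627 to 60302597) had 463.9 and 412.6 CPM in the libraries labelled SphK1 -/-, against 385.4 and 425.8 CPM in the WT control libraries. Its groups overlapped, with a log2 fold change of 0.11 ± 0.13 (SE; 95% interval -0.17 to 0.40; adjusted p = 0.757 in edgeR). Gm2a (chromosome 11, 55098115 to 55113029) had 276.3 and 268.4 CPM in the libraries labelled SphK1 -/-, against 236.8 and 331.7 CPM in the WT control libraries. Both libraries labelled SphK1 -/- lay between the 2 controls, which differed by 1.40-fold (log2 fold change between groups -0.062 ± 0.16, SE; adjusted p = 0.905 in edgeR).

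Other members also differed between the controls. For 26 of the 38 members the log2 ratio of the 2 WT control libraries was larger in size than the log2 fold change between the groups, and for 16 the same held for the 2 libraries labelled SphK1 -/-. The median size was 0.18 between the controls, 0.14 between the libraries labelled SphK1 -/- and 0.14 between the groups. For 8 members the groups differed by more than either pair did. A ratio of 2 single libraries scatters more than a difference between means of 2. It therefore tends to be the larger even where groups do not differ. These counts cannot show whether the groups differ, and the same counts over all genes tested were not made. WT control 2 was above WT control 1 by 1.62-fold for Cers4, 1.52-fold for Cerkl, 1.40-fold for Gm2a and 1.35-fold for Cerk.

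**Figure D4:**
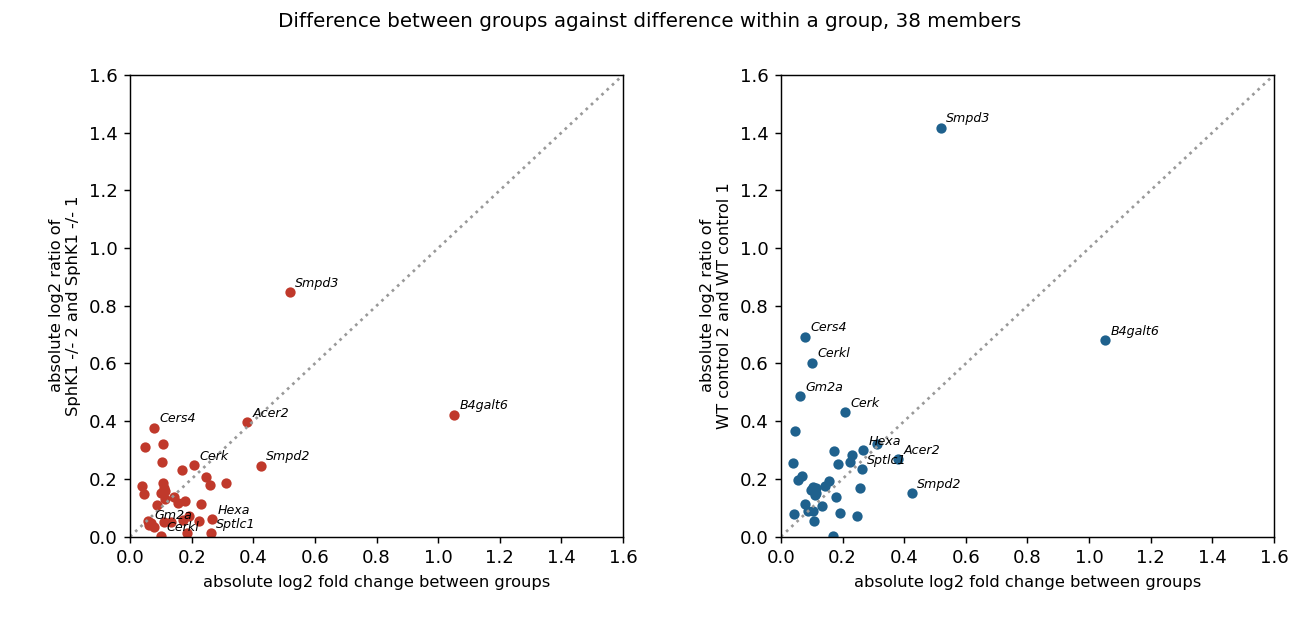
Size of the log2 fold change between groups (x axis) against the size of the log2 ratio of the 2 libraries labelled SphK1 -/- (left panel) or of the 2 WT control libraries (right panel), with 1 point for each of the 38 tested members; the dotted line marks equal size. In the right panel 26 points lie above the line, led by Smpd3, Cers4 and Cerkl, and in the left panel 16 do. A ratio of 2 single libraries scatters more than a difference between group means, so the line is no test of the groups.

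CACGTG, the core of the element bound by the lysosomal regulators TFEB and MITF, was searched in the members' promoters, a search chosen after the values were seen. The window was the 250 bases before each RefSeq start (GRCm38.p6), and the motif reads the same on both strands. Promoters were matched for 36 members, of which 8 held the motif, 22.2%, against 9.71% of the tested genes with a promoter and 6.86% of all genes with one. The members were Degs1, Cers6, Cers2, Sgms2, Glb1, Smpd2, Arsa and Gla. A match describes these letters alone. The bases around them were not scored, and binding by TFEB, MITF or any other factor was not tested. The members with a match lay on both sides of the comparison. The stretches below show the motif in capitals for 2 members that were higher in both libraries labelled SphK1 -/- (Degs1, Cers6), for 2 that were lower (Smpd2, Arsa) and for Glb1 and Gla, whose groups overlapped. Each is written 5′ to 3′ on the strand of the gene, and Gla holds 2 copies.
Degs1, chr1:182282221-182282250, minus strand: gggagcctcaatCACGTGgtccagtcagct
Cers6, chr2:68861407-68861436, plus strand: cggccaggctgcCACGTGacaggcgaggcg
Smpd2, chr10:41490517-41490546, minus strand: gggcggcaaccgCACGTGacatgctggggg
Arsa, chr15:89477425-89477452, minus strand: tcaactcagtgtCACGTGttgtctgctc
Glb1, chr9:114401018-114401047, plus strand: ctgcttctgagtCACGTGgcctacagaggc
Gla, first copy, chrX:134601215-134601244, minus strand: taagcgattgatCACGTGagcatctacgtc
Gla, second copy, chrX:134601182-134601211, minus strand: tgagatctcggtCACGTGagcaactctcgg

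The other genes of the pathway held a single call, and some branches had few reads or none. Ugt8a, which makes galactosylceramide, and Fa2h, which hydroxylates its fatty acid, had 0 reads in all 4 libraries, which allows up to 3 counts in each. Gal3st1, which adds sulfate to form sulfatide, had at most 8 reads in any library, and A4galt, which makes globotriaosylceramide, had at most 5. These 4 were named after their values were seen. Of 42 further sphingolipid genes listed, 40 were in the table and 29 were tested, with a median log2 fold change of -0.093, and 1 rose and 0 fell, against 6.0% and 0.752% of all genes tested. St3gal2 (chromosome 8), a sialyltransferase of gangliosides and of mucin-type glycans, had 35.6 and 30.9 CPM in the libraries labelled SphK1 -/-, against 16.2 and 20.3 CPM in the WT control libraries. Every library labelled SphK1 -/- was above every control, and the log2 fold change was 0.87 ± 0.16 (SE; 95% interval 0.50 to 1.24; adjusted p = 0.0115 in edgeR). The gene shares 0.28% of its 30-base words with genes elsewhere. The call was lost without SphK1 -/- replicate 1 (log2 fold change 0.76, adjusted p = 0.0645) and in the fit to genes with little shared sequence (0.91, adjusted p = 0.0524), and the marker sums of B cells, natural killer cells, macrophages and monocytes, and dendritic cells given above were also higher in both libraries labelled SphK1 -/-. Their part in this call was not tested. Plekha8, which carries glucosylceramide through the Golgi, had a log2 fold change of 0.66 ± 0.21 (SE; adjusted p = 0.136 in edgeR). For Cers3, at 18 reads or fewer in each library, it was -0.54 ± 0.59 (SE; adjusted p = 0.752 in edgeR).

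Beside the low St3gal5, the transcript of B4galnt1, the enzyme that extends gangliosides with N-acetylgalactosamine, was abundant. It was singled out after its values were seen. Its level averaged 189.8 CPM per kb, above that of Psap, while St3gal5 averaged 1.06 CPM per kb and St3gal2 5.65 CPM per kb. B4galnt1 had 436.6 and 423.2 CPM in the libraries labelled SphK1 -/-, against 489.7 and 469.2 CPM in the WT control libraries, a log2 fold change of -0.16 ± 0.12 (SE; adjusted p = 0.616 in edgeR). Other genes cover 20.7% of its exons.

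**Figure D5:**
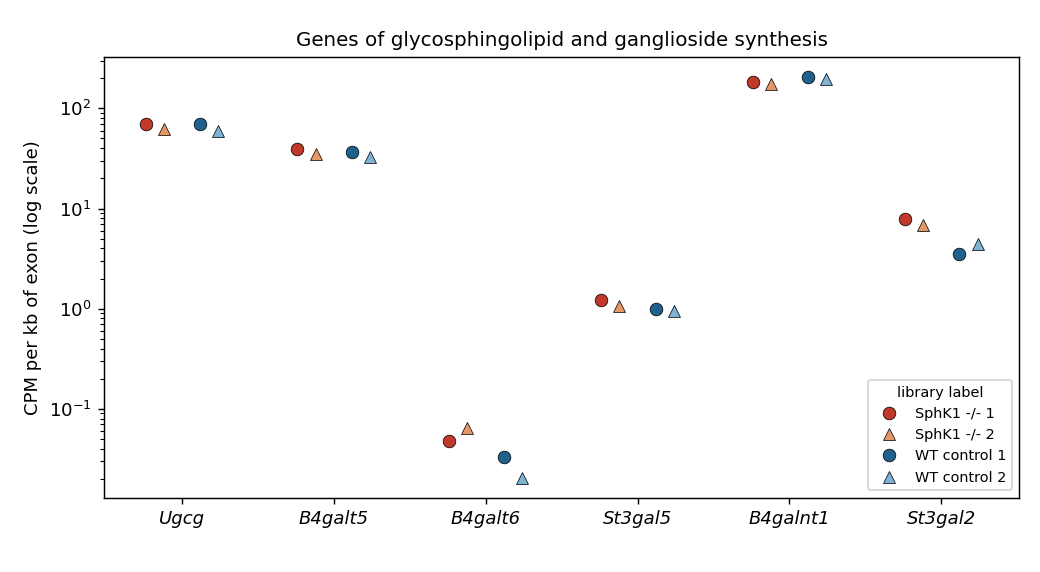
Level of 6 genes of glycosphingolipid and ganglioside synthesis in each library, as CPM per kb of exon on a log axis, with the libraries labelled SphK1 -/- left of the WT control libraries; each point is 1 library. St3gal2 is higher in both libraries labelled SphK1 -/-, and B4galnt1 lies far above St3gal5 in all 4 libraries.

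The members lie on 19 chromosomes, and Asah2 and Sgms1 are neighbours on chromosome 19, 14515 bases apart. Of the 39, 31 had at most 5% shared 30-base words and at most 10% of their exons under other genes. The exceptions were Ormdl2, Ormdl3, Acer3, Cerkl, Smpd2, Hexa, Arsa and Neu3, whose counts are uncertain. Ormdl3 shares 183 words, 8.49% of its own, with the processed pseudogene Gm12538 on chromosome 4. In a fit to the genes with little shared sequence 0 of 30 members were called, against 0.780% of those genes, with a lowest adjusted p of 0.705 in edgeR.

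Besides Sphk1, none of the 5 further genes of S1P handling that were examined passed the test. Sphk2 had 1995 and 2162 reads in the libraries labelled SphK1 -/- and 2095 and 2330 reads in the WT control libraries, with a log2 fold change of -0.066 (adjusted p = 0.848 in edgeR). For the lyase Sgpl1 the value was 0.15 (adjusted p = 0.659 in edgeR). The S1P phosphatase gene Sgpp2 had few reads, 5 and 12 in the libraries labelled SphK1 -/- and 34 and 27 reads in the WT control libraries (log2 fold change -1.81 ± 0.53, SE; adjusted p = 0.106 in edgeR). The groups did not overlap for Sgpp2. Sgpp1 and the receptor gene S1pr1 overlapped between groups, with log2 fold changes of 0.040 and -0.40 (adjusted p = 0.927 and 0.446 in edgeR).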

How the data were processed

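RNA of the cultured cells was made into 4 TruSeq mRNA libraries, per the labels' protocols, and the authors deposited unnormalised gene counts. Whether each library came from a separate culture was not taken as known. Per the submitters' processing notes, the tools were DESeq2 1.14.1, HTSeq 0.6.1p1, TopHat2 2.0.13 and cutadapt 1.11, with the GRCm38 build. Sources used here do not give their roles, the annotation or the strand setting, so overlapping and antisense genes are uncertain. Of 23419 entries, 720 had neither a name nor a value in the SphK1 -/- libraries (1.13% and 1.17% of WT control counts), and whether both groups were counted against the same annotation is not stated, a doubt that bears on every fold change. These and 27 entries with a date for a name were left out. Genes were tested with edgeR 4.0.16 in R 4.3.3 (TMM, filterByExpr minimum count 10, quasi-likelihood F test). The SE was taken as the size of the log2 fold change over the root of F, and 95% intervals use the fit's degrees of freedom. Alternatives used DESeq2 1.42.0 and limma 3.58.1, and the tests were checked on simulated counts. Exon lengths, 30-base words and overlaps came from GENCODE M21. Members past the threshold, the 10 with the largest fold change and the 3 most abundant are given per library, with some others beside them. Members and lists were chosen with earlier results of these data known.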

Additional observations from a re-analysis of the deposited data

How the results depend on the processing

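Depth limits B4galt6, Smpd3 and Sgms2, each at 26 reads or fewer in every library, where 1 count was at most 0.0213 CPM. Over all genes 765 were higher and 96 lower. Lower genes numbered 1432 with library totals alone and 178 with the replicate block. Without one library they numbered 87 to 230, the highest without WT control replicate 2. The fit to genes with little shared sequence called 62 higher and 9 lower. Equally numbered libraries did not deviate together (correlation -0.037), so the numbers are not taken as pairs, and the replicate block called 0 members.

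For the 38 tested members 13 alternatives gave 486 values, of which 450 kept their direction and their side of the threshold. Library totals alone moved the median of all genes from -0.021 to -0.26. That scaling called 5 of the 38 members lower, against 11.2% of all genes. They were Sptlc1 (log2 fold change -0.50), Sptssa (-0.42), Smpd2 (-0.66), Hexa (-0.50) and Neu1 (-0.43). Of the 29 other sphingolipid genes tested, 6 were called lower under it, beside the same 11.2% of all genes. Relative to that shift the members' median of -0.31 moved with the rest. Under it the sign turned for Ormdl1 (-0.054), Ormdl3 (-0.12), Degs1 (-0.13), Cers4 (-0.16), Cers6 (-0.0100), Asah2 (-0.017), Cerk (-0.032), Cerkl (-0.14), Sgms1 (-0.19), Ugcg (-0.20), B4galt5 (-0.12), Galc (-0.18) and Psap (-0.13). Leaving out a library turned the sign of 14 members, some of them the same, whose values ran as follows over the 4 libraries left out: Sptlc2 (-0.13 to 0.0088), Kdsr (-0.14 to 0.045), Cers2 (-0.18 to 0.014), Cers4 (-0.20 to 0.47), Acer3 (-0.31 to 0.012), Cerkl (-0.14 to 0.44), Sgms1 (-0.12 to 0.25), Samd8 (-0.24 to 0.019), Smpd1 (-0.12 to 0.026), Smpd3 (-0.024 to 1.40), Smpd4 (-0.28 to 0.046), Ugcg (-0.076 to 0.20), Galc (-0.032 to 0.19) and Gm2a (-0.25 to 0.21). Of the other sphingolipid genes named, Cers3 turned as well (-0.996 to 0.029). The cause was not tested. Among other sphingolipid genes the single call, St3gal2, was lost (0 higher) in the fit to genes with little shared sequence, and 0 to 1 were higher without one library. The call of Sphk1 (log2 fold change 3.12, adjusted p = 0.0233 in edgeR) was lost without WT control replicate 1 (0.162), WT control replicate 2 (0.0746) or SphK1 -/- replicate 1 (0.239), with the DESeq2 Wald test (0.0682) and in the fit to genes with little shared sequence (0.127).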
